A study of Homo sapiens with 60 samples.

Results

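The lysosome and autophagy genes described here are 43 genes taken from a fixed list of lysosomal, V-ATPase, autophagy and TFEB family genes, all of them present among the 19712 genes of the deposited tables. This list and the further gene lists were chosen with earlier results of these data known. The contrasts with all genes below therefore describe the lists and are no independent test of them. Their RNA was measured by RNA-Seq in 60 libraries from 4 EGFR-mutant non-small cell lung cancer (NSCLC) cell lines (HCC2935, HCC827, H1975 and PC9), with 3 biological replicates in each of 5 arms. In the DMSO arm, parental cells kept for 21 days without drug received the solvent for 24 h, and in the acute arm they received 500 nM osimertinib, an inhibitor of mutant EGFR, for 24 h. Drug-tolerant persisters (DTPs) are the cells that remained after 21 days in 500 nM osimertinib. For the short washout the DTPs were returned to drug-free medium for 24 h, and for the long washout they stayed in it for 7 days (PC9), 3 days (H1975), 4 days (HCC827) or 10 days (HCC2935). No transgene, knockout or other treatment is described for any group. Each line is a single cell line in culture, and the DTPs are the survivors of a treatment, so that fewer cells of a kind and less RNA per cell cannot be told apart in these bulk libraries.

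Lysosomes are acid compartments in which proteases, glycosidases and lipases break down material delivered by endocytosis or by autophagy. The V-ATPase pumps the protons that acidify them. In autophagy a membrane grows around cargo, ATG8 proteins (the LC3 and GABARAP families) are attached to that membrane, receptors tie cargo to ATG8, and the closed autophagosome fuses with a lysosome. The transcription factors TFEB, TFE3 and MITF are held in the cytoplasm by mTORC1 in fed cells and, once released, bind the CLEAR element in promoters of many lysosomal and autophagy genes. In tumor cells under drug or nutrient stress, autophagy is known as a recycling route.

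Library totals were 17.72 to 49.13 M estimated counts, with a median of 30.13 M. All 60 libraries lay nearest to a library of their own line, and 47 lay nearest to one of their own group. DUSP6, a direct ERK target, was lower than DMSO in acute osimertinib (log2 fold change ± SE of -4.65 ± 0.34) and in DTPs (-3.03 ± 0.43), and so were SPRY4, another ERK target (-4.42 ± 0.38 and -3.23 ± 0.39), and the proliferation marker MKI67 (-1.95 ± 0.13 and -1.76 ± 0.16). The long washout is labelled as lasting until cells divided exponentially again, but MKI67 in H1975 was at 146, 221 and 159 CPM (TMM-normalized counts scaled to the library total) after it, against 200.1, 339 and 117 CPM in the DTPs and 779, 656 and 693 CPM under DMSO. In HCC827 the MKI67 level was 164, 184 and 172 CPM after long washout and 116, 209 and 199 CPM in the DTPs. Long washout replicate 3 of PC9 stood apart from replicates 1 and 2, with 199.7, 147 and 388 CPM of GABARAPL1 in replicates 1 to 3, and the counts that rest on it are given with and without it. The 5 epithelial markers (EPCAM, CDH1, KRT8, KRT18, KRT19) summed to 1636 to 13641 TPM (a level scaled to transcript length and library total) over all libraries, and 4 of them were called lower in DTPs. The 4 leukocyte markers (PTPRC, CD14, CD163, LYZ) summed to 0.251 to 7.40 TPM, and LYZ was under 0.1 TPM in 36 libraries. The 3 endothelial markers (PECAM1, CDH5, VWF) summed to 0.255 to 22 TPM. The 3 fibroblast markers (COL1A1, COL1A2, PDGFRB) summed to 4.86 to 60.0 TPM under DMSO, 12.3 to 206.7 TPM in acute and 13.4 to 115.7 TPM in DTPs, and all 3 were called higher in both arms, although COL1A2 and PDGFRB were under 0.1 TPM in 23 and 24 libraries. Their part in the results below was not tested.

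Most of the 43 genes rose under osimertinib, at 24 h and in DTPs, in joint fits of the 4 lines. A gene was called at an adjusted p under 0.05 in edgeR's quasi-likelihood test with Benjamini-Hochberg adjustment over all genes tested. Acute osimertinib against DMSO called 34 members higher and 1 lower of 43 tested, where 33.2% of all genes tested were called higher and 28.6% lower. DTPs against DMSO also called 34 members higher and 2 lower, with 27.8% and 27.1% of all genes. The median log2 fold change of the members was 0.65 in acute (0.084 over all genes) and 0.65 in DTPs (0.049 over all genes). These comparisons share the DMSO libraries. In acute osimertinib 15 members, and in DTPs 11 members, were called with a change of at least 2-fold. The share of all genes that did so was not counted, so these numbers have no background beside them. In the smaller fits of 1 line at a time, 21 members were called higher in each of the 4 lines in acute osimertinib, as were 6.76% of all genes. For DTPs the number was 17 members (4.5% of genes) and for long washout against DMSO 15 members (2.53% of genes). The genes higher in all 4 lines in each of these 3 arms were CTSA, CTSB, CTSD, CTSF, GAA, HEXA, PSAP, GABARAPL1, ULK1, WIPI1, NBR1 and CALCOCO1. The share of all genes in this overlap was not counted, and the 3 arms are compared with the same DMSO libraries. Of these 12 genes, GABARAPL1 alone kept all its calls when any 1 library was left out. Each of the other 11 lost a call in at least 1 of these fits, most often in PC9 after long washout, where the WIPI1 and NBR1 calls were each lost for 5 of 6 libraries and the ULK1 call for 4. The NBR1 call in DTPs of HCC827 was lost for any of the 6.

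**Figure D1:**
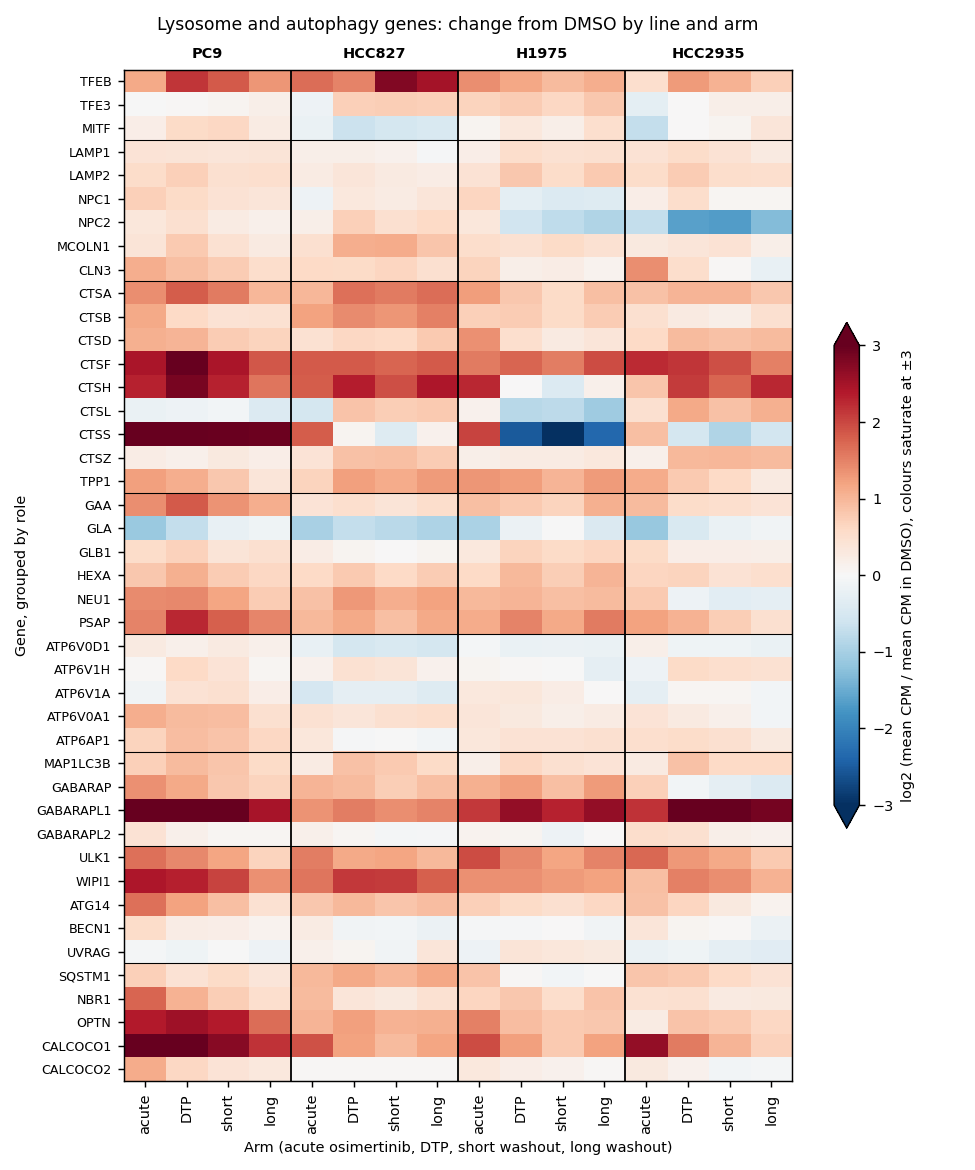
Log2 ratio of the mean CPM in each arm to the mean CPM under DMSO of the same line (n = 3 libraries each) for the 43 genes, grouped by role, with lines and arms in columns; colours saturate at ±3. GABARAPL1, CTSF and WIPI1 are above DMSO in each of the 16 columns, while CTSS is above it in the PC9 columns and below it in the H1975 columns after the acute arm.

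The levels per length placed PSAP first, with a mean of 1001 TPM over the 60 libraries, then CTSD at 908 TPM and GABARAP at 517 TPM, and TFEB last at 7.76 TPM. Together the 43 genes made up 0.341% ± 0.017 of the TPM total of PC9 under DMSO (SD, n = 3) and 0.966% ± 0.015 in its DTPs. In HCC827 their share was 0.373% ± 0.030 and 0.700% ± 0.049, in H1975 0.489% ± 0.0067 and 0.788% ± 0.10, and in HCC2935 0.686% ± 0.016 and 1.22% ± 0.071. Under DMSO the mean ± SD of PC9 overlapped that of HCC827, and in DTPs that of PC9 lay above it. PSAP alone held 9.98% of the members' TPM in PC9 under DMSO and 20.9% in its DTPs.

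**Figure D2:**
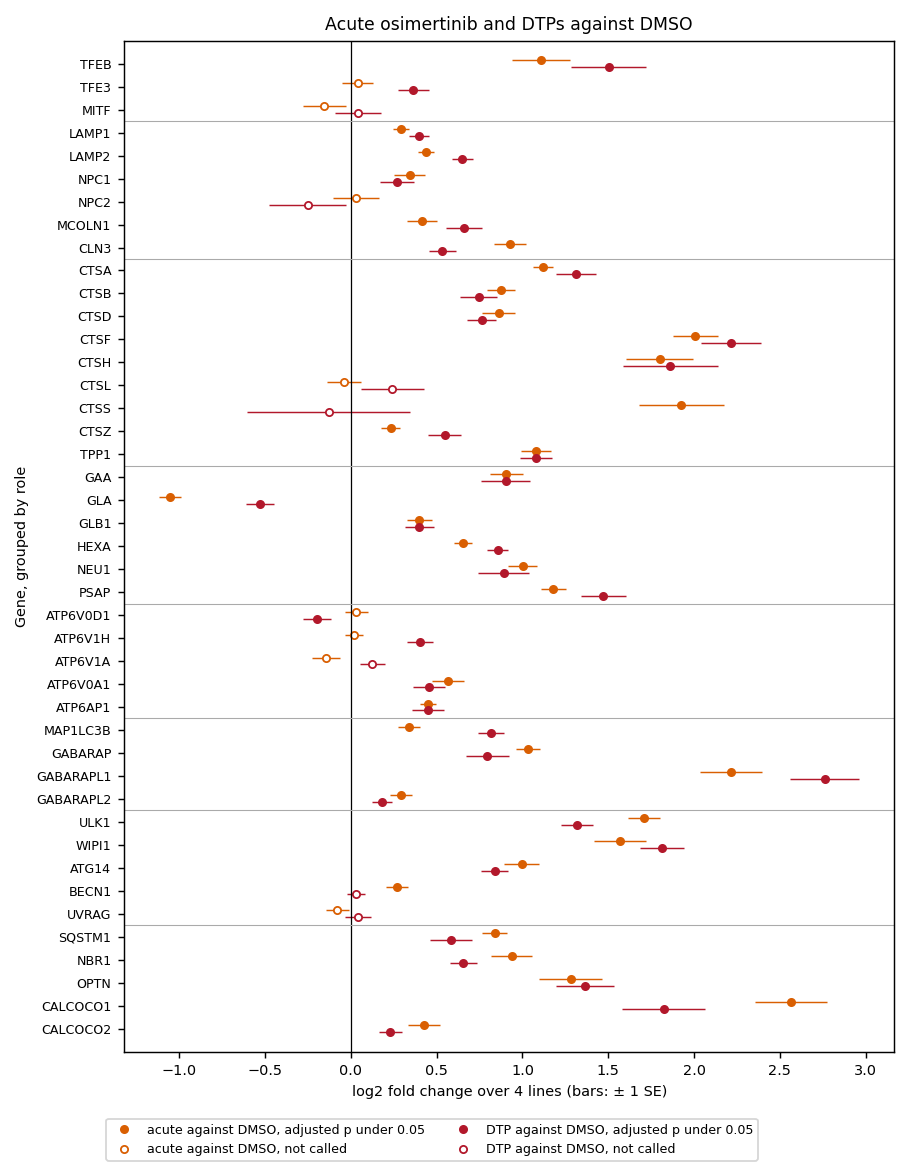
Log2 fold change over the 4 lines for each of the 43 genes (rows) in acute osimertinib and in DTPs, each against DMSO, with bars of ± 1 SE; filled points are called at an adjusted p under 0.05 and open points are not. GABARAPL1 lies farthest to the right in DTPs (2.76), CALCOCO1 in acute (2.56), and GLA is the gene farthest to the left in both arms.

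TFEB was the member of its family that rose most. Its levels in PC9 held 2.76, 3.10 and 2.56 CPM under DMSO and 15.4, 12.2 and 9.91 CPM in the DTPs, and in HCC827 it held 0.415, 0.0976 and 0.454 CPM under DMSO and 1.37, 1.02 and 0.324 CPM in the DTPs. In H1975 TFEB held 3.05, 4.64 and 2.53 CPM under DMSO and 9.11, 5.24 and 8.64 CPM in the DTPs, and in HCC2935 it held 11.8, 12.5 and 7.33 CPM under DMSO and 17.5, 31.3 and 27.4 CPM in the DTPs. The DMSO and DTP libraries did not overlap in PC9, H1975 and HCC2935 but overlapped in HCC827, where the counts of TFEB were too low to be tested in that comparison. Over the 4 lines its log2 fold change was 1.11 ± 0.17 (adjusted p = 4.78e-06) in acute and 1.5 ± 0.22 (adjusted p = 4.54e-06) in DTPs. TFE3, the closely related factor, was at 0.039 ± 0.092 (adjusted p = 0.728) in acute and was called higher in DTPs, at 0.36 ± 0.089 (adjusted p = 0.00147). MITF, best known from melanocytes, was called in neither (-0.16 in acute, 0.043 in DTPs). The DTP effect on TFE3 differed between lines (adjusted p of the interaction of line and arm = 9.77e-06), with 0.74 ± 0.12 in HCC827 and 0.76 ± 0.10 in H1975 but 0.043 in PC9 and -0.0064 in HCC2935. MITF differed as well (adjusted p = 0.00322), rising in PC9 (0.56 ± 0.16) and falling in HCC827 (-0.62 ± 0.16).

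**Figure D3:**
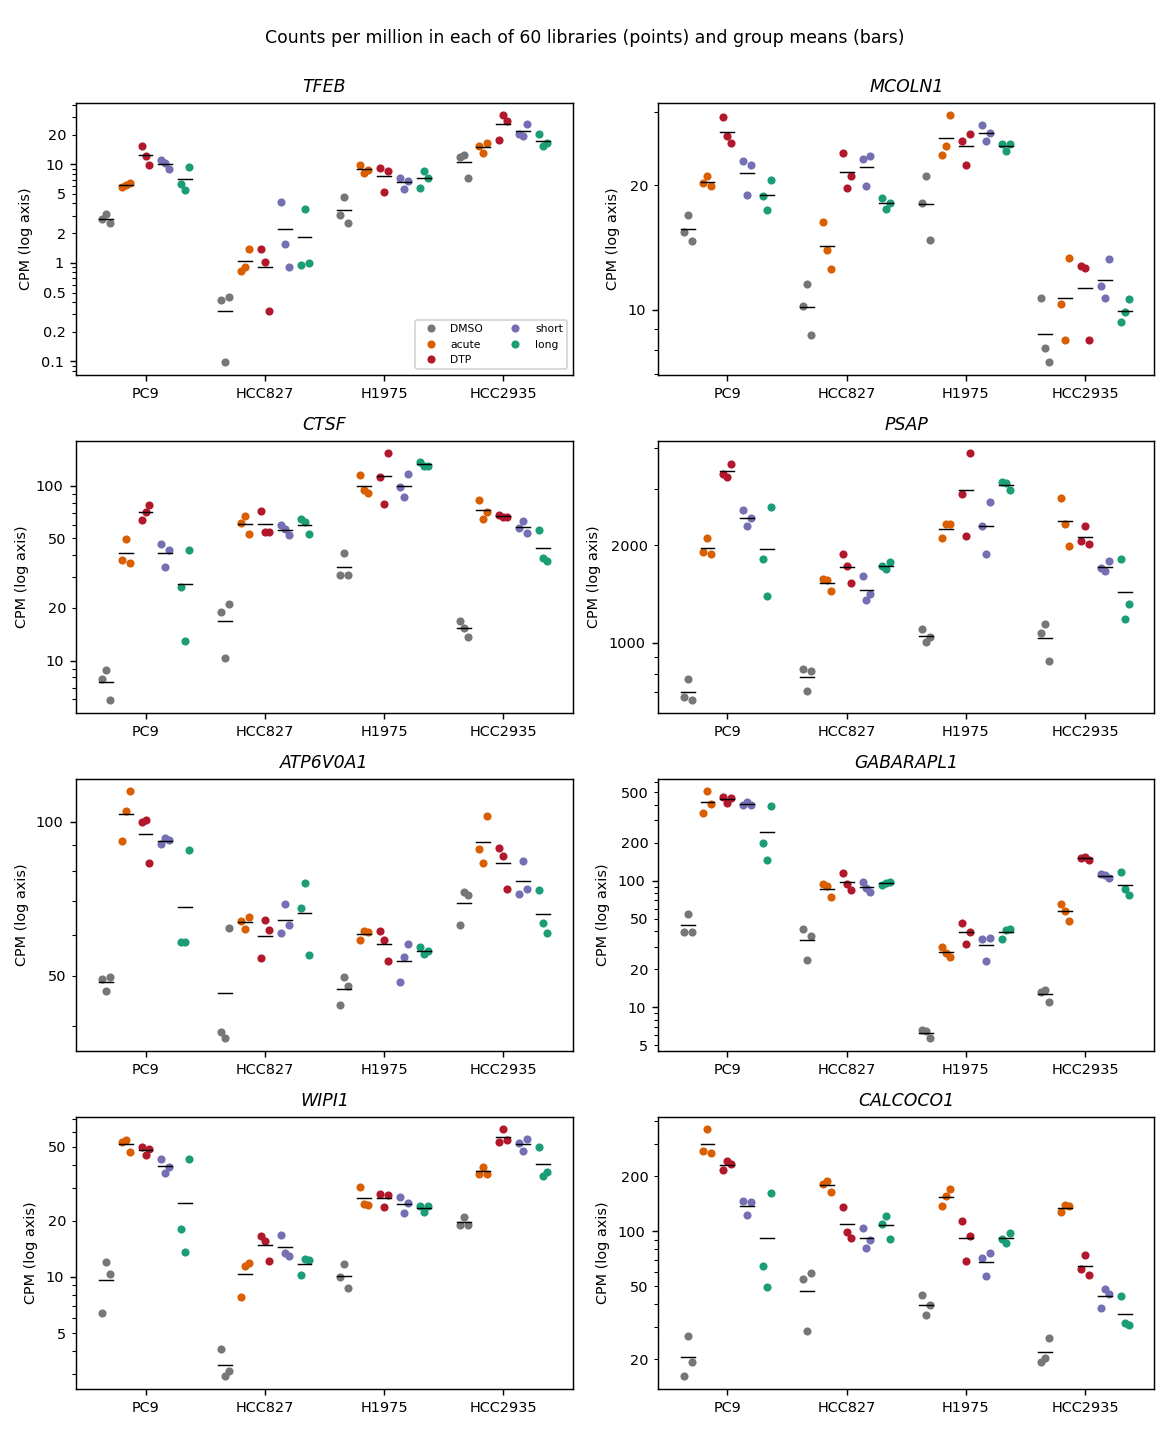
CPM (log axis) of 8 genes, 1 from each role group, in all 60 libraries; points are libraries, colours are arms, and short bars are the means of 3 libraries. GABARAPL1, CTSF, PSAP, WIPI1 and CALCOCO1 lie above their DMSO libraries in every DTP library, and PC9 long washout replicate 3 lies above replicates 1 and 2 in GABARAPL1, WIPI1 and CALCOCO1.

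Of the 6 genes for lysosomal membrane and transport proteins, 5 rose in acute osimertinib and 5 in DTPs. For this and the role groups below, 33.2% of all genes were called higher in acute osimertinib and 27.8% in DTPs, and 28.6% and 27.1% lower. MCOLN1, which encodes the calcium channel TRPML1 of the lysosomal membrane, held 15.4, 16.9 and 14.6 CPM under DMSO and 29.2, 26.2 and 25.3 CPM in the DTPs in PC9, and held 10.2, 11.6 and 8.71 CPM under DMSO and 23.9, 19.7 and 21.1 CPM in the DTPs in HCC827. In H1975 it held 18.2, 21.1 and 14.8 CPM under DMSO and 25.6, 22.3 and 26.5 CPM in the DTPs, and in HCC2935 it held 10.7, 8.09 and 7.46 CPM under DMSO and 12.7, 12.6 and 8.47 CPM in the DTPs. The groups overlapped in HCC2935 but not in the other 3 lines. MCOLN1 rose by 0.66 ± 0.11 (adjusted p = 1.62e-05) on the log2 scale in DTPs. LAMP1 and LAMP2, the main glycoproteins of the lysosomal membrane, rose by 0.40 ± 0.057 and 0.65 ± 0.062 in DTPs. CLN3, whose loss causes juvenile Batten disease, was the largest rise of the group in acute osimertinib at 0.93 ± 0.092 (adjusted p = 7.98e-09) and stood at 0.53 ± 0.079 in DTPs. NPC1, the cholesterol exporter of the lysosome, rose by 0.34 ± 0.089 and 0.27 ± 0.10. NPC2, its soluble partner, was not called in either arm over the 4 lines (0.031 and -0.25).

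The letters of the CLEAR core, TCACGTGA, were searched on both strands in windows from 250 bases before to 50 bases after the annotated start, in RefSeq promoters of GRCh38.p14. Promoter entries were matched for 34 of the 43 genes. The core was found in 6 of them (LAMP1, MCOLN1, CLN3, CTSA, GAA and ATP6V0D1), or 17.6%, against 0.98% of all 35116 promoters in the table. The shorter letters CACGTG, which lie inside the core, were in 10 of the 34 (29.4%) against 7.26% of all. GTAAACA, the forkhead letters, were in 3 of the 34 (8.8%) against 3.42%. Among the 22199 promoters of protein-coding genes the shares were 1.27% for TCACGTGA, 8.34% for CACGTG and 2.85% for GTAAACA. The median log2 fold change in DTPs was 0.60 for the 6 genes with TCACGTGA and 0.62 for the 28 without it. It was 0.80 for the 10 genes with CACGTG against 0.50 for the others, and 0.24 for the 3 with GTAAACA against 0.66. A match of letters is a description of the window, not a measured binding site. The promoters of 3 members are shown because their genes rose in DTPs and hold the core wholly upstream of the start and outside annotated exons; capitals mark TCACGTGA, and each window is on the plus strand, 5′ to 3′. They lie at chr17:80101448-80101555 (GAA), chr19:7522526-7522623 (MCOLN1, with 2 copies) and chr13:113297154-113297238 (LAMP1), and the first copy begins 77, 42 and 29 bases before the start, respectively.
GAA: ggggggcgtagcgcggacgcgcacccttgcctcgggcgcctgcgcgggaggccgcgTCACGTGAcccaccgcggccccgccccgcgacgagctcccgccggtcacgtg
MCOLN1: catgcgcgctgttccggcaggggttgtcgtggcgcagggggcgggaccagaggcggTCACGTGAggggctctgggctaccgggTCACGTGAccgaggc
LAMP1: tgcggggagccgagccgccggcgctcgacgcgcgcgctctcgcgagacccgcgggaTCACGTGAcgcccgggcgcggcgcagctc

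The 9 lysosomal proteases held the largest rises among the hydrolases, with 8 called higher in acute and 7 in DTPs. CTSF, a cysteine cathepsin, held 7.84, 8.80 and 5.91 CPM under DMSO and 63.7, 71.00 and 77.8 CPM in the DTPs in PC9, and held 18.8, 10.3 and 21.1 CPM under DMSO and 72.3, 54.2 and 54.3 CPM in the DTPs in HCC827. In H1975 CTSF held 30.8, 41.5 and 30.7 CPM under DMSO and 112, 78.5 and 153 CPM in the DTPs, and in HCC2935 it held 16.9, 15.4 and 13.6 CPM under DMSO and 68.05, 66.7 and 66.6 CPM in the DTPs. All 12 DTP libraries lay above the DMSO libraries of their line. Its log2 fold change was 2.01 ± 0.13 (adjusted p = 6.59e-12) in acute and 2.21 ± 0.18 (adjusted p = 9.64e-10) in DTPs, from 1.73 ± 0.23 in H1975 to 3.24 ± 0.14 in PC9. CTSH, an aminopeptidase, rose by 1.86 ± 0.28, CTSA (protective protein, which also stabilizes GLB1 and NEU1) by 1.31 ± 0.12 and TPP1, a tripeptidyl peptidase, by 1.08 ± 0.094. The abundant proteases CTSB and CTSD rose by 0.75 ± 0.11 and 0.76 ± 0.083, and CTSZ by 0.55 ± 0.094. CTSL was called in neither arm (-0.042 and 0.24), and since 6 pseudogenes carry its name in the annotation, its counts are uncertain. CTSS, which trims MHC class II invariant chain in antigen-presenting cells, rose in acute osimertinib (1.93 ± 0.25 (adjusted p = 4.31e-07)) but not in DTPs (-0.13 ± 0.47 (adjusted p = 0.837)).

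Among the glycosidases and PSAP, 5 of 6 rose in both arms and GLA fell in both. PSAP, the precursor of the saposins that hand sphingolipids to their hydrolases, held 676, 769 and 661 CPM under DMSO and 3333, 3261 and 3587 CPM in the DTPs in PC9, and held 830.1, 708 and 814 CPM under DMSO and 1881, 1729 and 1533 CPM in the DTPs in HCC827. In H1975 PSAP held 1104, 1001 and 1041 CPM under DMSO and 2895, 2138 and 3855 CPM in the DTPs, and in HCC2935 it held 1069.8, 1142 and 878 CPM under DMSO and 2063, 2305 and 2023 CPM in the DTPs. No DTP library overlapped the DMSO libraries of its line. PSAP rose by 1.18 ± 0.071 (adjusted p = 1.79e-12) in acute and by 1.47 ± 0.13 (adjusted p = 4.43e-09) in DTPs. HEXA, the alpha subunit of beta-hexosaminidase, rose by 0.86 ± 0.061 in DTPs and GAA (acid alpha-glucosidase, which degrades glycogen) by 0.90 ± 0.14. NEU1 (a sialidase) rose by 0.89 ± 0.15 and GLB1 (beta-galactosidase) by 0.40 ± 0.084 in DTPs. NEU1 was called higher in DTPs in 3 of the 4 lines, and its log2 ratio of mean CPM to DMSO in HCC2935 was -0.16. GLA, the alpha-galactosidase that is deficient in Fabry disease, fell: its log2 fold change was -1.05 ± 0.064 (adjusted p = 1.99e-12) in acute and -0.53 ± 0.081 (adjusted p = 9.52e-06) in DTPs. In acute osimertinib GLA was called lower in each of the 4 lines, from -1.15 in HCC2935 to -1.0 in HCC827.

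Of the 5 V-ATPase genes, 2 rose in acute osimertinib (40%, near the 33.2% of all genes), and 3 rose and 1 fell in DTPs (27.8% and 27.1% of all genes). Their median log2 fold change in acute was 0.032, below the 0.084 over all genes. ATP6V0A1, the a1 subunit of the membrane sector, held 49.3, 46.8 and 49.7 CPM under DMSO and 99.8, 101 and 83.1 CPM in the DTPs in PC9, and held 38.9, 37.8 and 62.1 CPM under DMSO and 54.1, 64.4 and 61.3 CPM in the DTPs in HCC827. In H1975 ATP6V0A1 held 43.9, 49.7 and 47.8 CPM under DMSO and 61.1, 58.9 and 53.5 CPM in the DTPs, and in HCC2935 it held 63.00, 72.8 and 72.01 CPM under DMSO and 88.9, 85.8 and 73.8 CPM in the DTPs. The 2 groups overlapped in HCC827 alone, where 1 DMSO library was within the range of the DTPs. ATP6V0A1 rose by 0.57 ± 0.093 (adjusted p = 1.44e-05) in acute and 0.46 ± 0.092 (adjusted p = 0.000223) in DTPs, and ATP6AP1, an accessory subunit, by 0.45 ± 0.048 and 0.45 ± 0.091. ATP6V1H, of the cytosolic sector, rose in DTPs (0.40 ± 0.077) and was at 0.02 in acute. ATP6V1A, the catalytic subunit, was called in neither (-0.15 and 0.13). ATP6V0D1 was called lower in DTPs at -0.19 ± 0.081 (adjusted p = 0.0455), a call that was lost when any 1 of 13 of the 24 libraries was left out and in 9 of the other alternatives.

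All 4 ATG8 family genes rose in acute osimertinib and in DTPs, by very different amounts. GABARAPL1, a GABARAP-family ATG8, held 39.4, 54.4 and 39.4 CPM under DMSO and 464, 415 and 450.2 CPM in the DTPs in PC9, and held 41.3, 23.7 and 36.8 CPM under DMSO and 116, 94.7 and 85.2 CPM in the DTPs in HCC827. In H1975 it held 6.61, 6.48 and 5.67 CPM under DMSO and 45.98, 31.6 and 39.6 CPM in the DTPs, and in HCC2935 it held 13.2, 13.8 and 10.99 CPM under DMSO and 151, 154 and 146 CPM in the DTPs. Every DTP library of a line lay above its DMSO libraries. The log2 fold change of GABARAPL1 was 2.22 ± 0.18 (adjusted p = 2.7e-10) in acute and 2.76 ± 0.20 (adjusted p = 3.1e-10) in DTPs, the largest of the 43 genes in DTPs. MAP1LC3B, the LC3 most used to follow autophagosomes, rose by 0.34 ± 0.067 and then 0.82 ± 0.074, GABARAP by 1.03 ± 0.07 and 0.80 ± 0.12, and GABARAPL2 by 0.29 ± 0.065 and 0.18 ± 0.06. The GABARAPL2 call in DTPs was lost without HCC2935 (0.11, adjusted p = 0.131) and with a replicate block (0.18, adjusted p = 0.0543). Within the acute arm of HCC2935, where same-numbered libraries deviated together, MAP1LC3B stood at 0.26 with an adjusted p of 0.0506, and at 0.0264 with a replicate block.

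Of the 5 genes for the start of autophagy, 4 rose in acute and 3 in DTPs. WIPI1, a phosphoinositide-binding protein at the growing membrane, held 6.38, 11.99 and 10.4 CPM under DMSO and 49.99, 45.2 and 48.6 CPM in the DTPs in PC9, and held 4.10, 2.93 and 3.13 CPM under DMSO and 16.6, 15.6 and 12.2 CPM in the DTPs in HCC827. In H1975 WIPI1 held 9.98, 11.8 and 8.68 CPM under DMSO and 27.8, 23.9 and 27.4 CPM in the DTPs, and in HCC2935 it held 18.99, 20.8 and 18.96 CPM under DMSO and 52.8, 61.8 and 54.1 CPM in the DTPs. The groups did not overlap in any of the 4 lines. Its log2 fold change was 1.57 ± 0.15 (adjusted p = 6.27e-09) in acute and 1.81 ± 0.13 (adjusted p = 2.05e-10) in DTPs. ULK1, the kinase that starts autophagy, rose by 1.71 ± 0.094 and 1.32 ± 0.10, and its effect was not called different between lines in either arm (adjusted p = 0.468 and 0.714). ATG14, the subunit that directs the PI3-kinase complex to autophagy, rose by 1.0 ± 0.10 and 0.84 ± 0.078. BECN1, the core of that complex, rose in acute (0.27 ± 0.063) and was at 0.03 ± 0.054 in DTPs. UVRAG, which takes the place of ATG14 in the endosomal form of the complex, was called in neither (-0.079 and 0.042).

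The 5 autophagy receptors all rose in both arms in the joint fits of the 4 lines. CALCOCO1, a receptor for ER membranes, held 16.1, 26.6 and 19.2 CPM under DMSO and 217, 243 and 233 CPM in the DTPs in PC9, and held 55.04, 28.4 and 58.8 CPM under DMSO and 136, 98.9 and 92.1 CPM in the DTPs in HCC827. In H1975 CALCOCO1 held 44.7, 34.9 and 39.5 CPM under DMSO and 115, 68.6 and 94.3 CPM in the DTPs, and in HCC2935 it held 19.3, 20.2 and 26.1 CPM under DMSO and 62.3, 74.6 and 57.9 CPM in the DTPs. DTP and DMSO libraries were separate in all 4 lines. CALCOCO1 rose by 2.56 ± 0.21 (adjusted p = 3.1e-10) in acute, the largest of the 43 in that arm, and by 1.82 ± 0.24 (adjusted p = 1.2e-06) in DTPs. OPTN, a receptor for damaged mitochondria, rose by 1.28 ± 0.18 and 1.36 ± 0.17, NBR1 by 0.94 ± 0.12 and 0.66 ± 0.077 and SQSTM1 (p62), the receptor for ubiquitinated cargo, by 0.84 ± 0.075 and 0.58 ± 0.12. CALCOCO2 (NDP52), the paralog of CALCOCO1 that binds bacteria and mitochondria, rose less, by 0.43 ± 0.10 and 0.23 ± 0.067. In DTPs of single lines, CALCOCO2 was called higher in 1 of the 4 lines and SQSTM1 in 3. For CALCOCO2 the log2 ratio of mean CPM to DMSO was 0.62 in PC9, 0.026 in HCC827, 0.19 in H1975 and 0.14 in HCC2935. For SQSTM1 it was 0.045 in H1975.

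In the lines taken one at a time, PC9 had the most members called. Acute osimertinib called 36 of 43 members higher and 1 lower in PC9 (34.4% and 34.1% of all genes), and 24 higher and 3 lower in HCC827 (20.2% and 22.1%). In H1975 it called 28 higher and 1 lower (21.2% and 23.7%), and in HCC2935 29 higher and 5 lower (22% and 25.1%). For DTPs the counts were 36 and 1 in PC9 (35.4% and 35.9% of genes) and 28 and 2 of 42 tested in HCC827 (19.4% and 17.2%). In H1975 they were 28 and 2 (22.4% and 23.4%), and in HCC2935 28 and 3 (25.3% and 27.2%). Medians over the members in DTPs were 0.92 in PC9, 0.75 in HCC827, 0.51 in H1975 and 0.54 in HCC2935. The count of 5 members lower in acute HCC2935 went to 2 without DMSO replicate 1 or 2, and to 3 without acute replicate 2 or 3. The shares of all genes in these fits were not counted.

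The size of the effect differed between lines for many members, by a test of the interaction itself. It was called for 30 members in acute (40.5% of all genes) and for 35 members in DTPs (61.6% of all genes), and without PC9 for 13 and 20. The share of all genes without PC9 was not counted, and that test has fewer libraries, so the drop cannot be assigned to the members. In DTPs 4 members, MITF, NPC2, CTSL and CTSS, were called in opposite directions in different lines. The share of all genes called so was not counted. The 4 members are described with CTSH and GABARAP, all chosen after their values were seen. CTSS held 0.124, 0.405 and 0.500 CPM under DMSO and 4.31, 4.18 and 3.94 CPM in the DTPs of PC9, and 9.82, 6.12 and 10.7 CPM and 1.17, 0.871 and 2.61 CPM in those of H1975. It was thus higher than DMSO in PC9 (3.57 ± 0.40) and lower in H1975 (-2.54 ± 0.42) and HCC2935 (-0.53 ± 0.16). In acute osimertinib CTSS was higher in each line, from 0.90 ± 0.16 in HCC2935 to 4.03 ± 0.40 in PC9, the line with the lowest CTSS level under DMSO. CTSL rose in HCC827 (0.89 ± 0.13) and HCC2935 (1.13 ± 0.11) and fell in H1975 (-0.85 ± 0.13). NPC2 rose in PC9 (0.49 ± 0.062) and HCC827 (0.76 ± 0.16) and fell in HCC2935 (-1.65 ± 0.091). CTSH rose by more than 2 on the log2 scale in PC9, HCC827 and HCC2935 and was at -0.011 ± 0.25 in H1975, where it had risen by 2.21 ± 0.43 in acute. GABARAP rose in PC9, HCC827 and H1975 (1.14, 0.97 and 1.22) and was at -0.10 ± 0.082 in HCC2935.

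**Figure D4:**
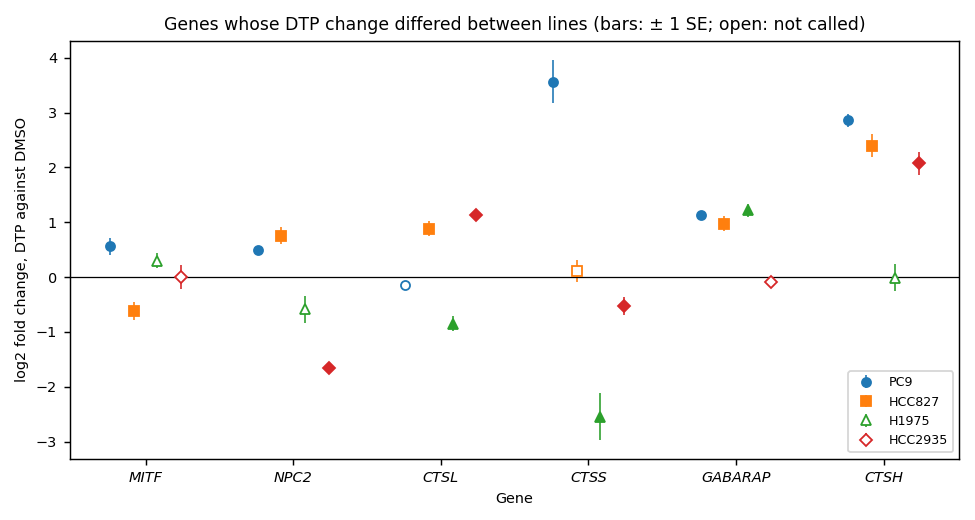
Log2 fold change of 6 genes in DTPs against DMSO in each line alone, with bars of ± 1 SE; filled symbols are called at an adjusted p under 0.05 and open ones are not. CTSS ranges from 3.57 in PC9 to -2.54 in H1975, and GABARAP is above 0 in 3 lines and at -0.097 in HCC2935.

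DTPs were compared with acute osimertinib to ask what separates long from short treatment. Of the 43 genes, 12 were called higher in DTPs (18.8% of all genes) and 9 lower (17.1%), and the median difference was 0.0066. TFE3 (0.33 ± 0.085 (adjusted p = 0.00455)), GABARAPL1 (0.54 ± 0.13 (adjusted p = 0.00325)), MAP1LC3B (0.48 ± 0.077 (adjusted p = 5.28e-05)) and GLA (0.53 ± 0.08 (adjusted p = 3e-05)) were higher in DTPs. CTSS fell by far the most (-1.94 ± 0.36 (adjusted p = 0.000273)), followed by CALCOCO1 (-0.72 ± 0.10 (adjusted p = 6.81e-06)), ULK1 (-0.39 ± 0.077 (adjusted p = 0.000492)) and CLN3 (-0.39 ± 0.088 (adjusted p = 0.00156)). Of the 5 autophagy receptors, 0 were called higher in DTPs than in acute and 3 lower (NBR1, CALCOCO1 and CALCOCO2). The GABARAPL1 call was lost without HCC2935 and the TFE3 call without HCC827. Among the 21 calls were 4 weaker ones, of MCOLN1, WIPI1 and PSAP (higher) and GABARAP (lower). They were lost when any 1 of 19, 16, 11 and 14 of the 24 libraries was left out, in that order.

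After 24 h without drug part of the set was lower than in DTPs. Short washout against DTPs called 14 members lower (5.65% of all genes) and 0 higher (7.25%). For the members higher, the count was 1 at an unadjusted p under 0.05, and 1, GLA, in DESeq2 and in limma. The largest falls were CTSS (-0.54 ± 0.13 (adjusted p = 0.00789)), CALCOCO1 (-0.50 ± 0.088 (adjusted p = 0.00122)), CTSH (-0.44 ± 0.093 (adjusted p = 0.00332)), PSAP (-0.35 ± 0.074 (adjusted p = 0.00359)) and CTSF (-0.32 ± 0.10 (adjusted p = 0.0329)). The other 9 genes called lower were LAMP2, NPC2, HEXA, NEU1, GABARAP, GABARAPL1, GABARAPL2, ATG14 and NBR1. The CTSF call was lost when any 1 of 9 libraries was left out. The members called lower numbered 4 without PC9 and 8 without HCC2935, in smaller fits for which the shares of all genes were not counted. The response to short washout differed between lines in 0 members (0.0248% of all genes) by edgeR's test, with 4 members at an unadjusted p under 0.05, 1 member in DESeq2 (CLN3) and 0 in limma.

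After the long washout, whose length differed between lines, most members were still above DMSO. Against DMSO it called 26 members higher and 1 lower in PC9 (15.9% and 14.7% of all genes) and 27 higher and 4 lower in HCC827 (19.7% and 19.9%). In H1975 it called 28 higher and 7 lower (26.8% and 28.2%), and in HCC2935 23 higher and 4 lower (21% and 18.9%). The fewest members called higher in PC9 when a library was left out were 6, without DMSO replicate 3. Without DMSO replicate 1 or 2 or long washout replicate 1, the numbers were 14, 14 and 16. No share of all genes was counted for any fit with 1 library left out. Without long washout replicate 3, 24 members were higher and 1 lower, and the median of the members went from 0.51 to 0.35. Over the same change GABARAPL1 went to 1.98 and CTSF to 1.4, both still called, while WIPI1 went from 1.4 to 0.74 (adjusted p = 0.0595) and NBR1 from 0.53 to 0.34 (adjusted p = 0.0588). GABARAPL1 remained far above DMSO in all 4 lines, with 2.49 ± 0.35 in PC9, 1.5 ± 0.19 in HCC827, 2.62 ± 0.12 in H1975 and 2.9 ± 0.18 in HCC2935. CTSF (1.9, 1.85, 1.93 and 1.54 in the same order) and TFEB (1.35, 2.48, 1.07 and 0.74) were called higher in all 4 lines too. The TFEB call in HCC827 was lost without DMSO replicate 1 or 2 or long washout replicate 2, with values from 1.6 to 2.82 over the libraries left out. The TFEB call in HCC2935 was lost without long washout replicate 1, and the CTSF call in PC9 without DMSO replicate 3.

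Against DTPs, members were lower after long washout in PC9 and HCC2935. In PC9 10 members were lower (5.47% of all genes) and 1, GLA, was higher (11.8%). Without long washout replicate 3 of PC9, 31 members were lower and the median moved from -0.37 to -0.53. No member was called lower when any other 1 of the 6 libraries was left out. For these fits, and those of HCC2935 below with 1 library left out, the shares of all genes were not counted. CTSF, for example, was at -1.36 ± 0.37 with the 3 replicates and at -1.85 without replicate 3. GABARAPL1, not called with the 3 replicates (-0.84 ± 0.32 (adjusted p = 0.0909)), was at -1.34 (adjusted p = 0.000203) without replicate 3. CALCOCO1 likewise moved from -1.31 ± 0.40 (adjusted p = 0.0571) to -2.0 (adjusted p = 7.45e-05). In HCC2935 6 members were lower (2.17%) and 0 higher (2.99%): NPC1, CLN3, TPP1, GABARAPL1, ATG14 and CALCOCO1, the last at -0.88 ± 0.16 (adjusted p = 0.0264). Of members higher there, 2 had an unadjusted p under 0.05, DESeq2 called 1 and limma 0. The 6 lower became 11 without long washout replicate 1, 2 without DTP replicate 3, 1 without DTP replicate 2, and 0 without DTP replicate 1 or long washout replicate 2 or 3. In HCC827 0 members changed in either direction (0% and 0% of all genes), with 0 at an unadjusted p under 0.05 and 0 in DESeq2 and limma. In H1975, where MKI67 had stayed at the level of the DTPs, 0 members changed (0% of genes higher and 0.0136% lower), with 4 at an unadjusted p under 0.05, 1 in DESeq2 (ATP6V1A) and 0 in limma. A set of ERK target genes had also stayed near the DTPs in H1975, summing to 12.0, 14.7 and 20.3 TPM after long washout. It summed to 14.5, 20.5 and 13.5 TPM in the DTPs and to 99.8, 88.9 and 95.1 TPM under DMSO. In HCC827 the set summed to 81.9, 58.1 and 84.6 TPM after long washout. The HCC827 sums were 52.6, 69.8 and 32.5 TPM in the DTPs and 105.3, 112.0 and 91.6 TPM under DMSO. Whether the drug had lost its effect in the long washout libraries of H1975 or HCC827 was not tested. The median of the members against DMSO was 0.51 in DTPs and 0.47 after long washout in H1975, and 0.75 and 0.73 in HCC827.

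**Figure D5:**
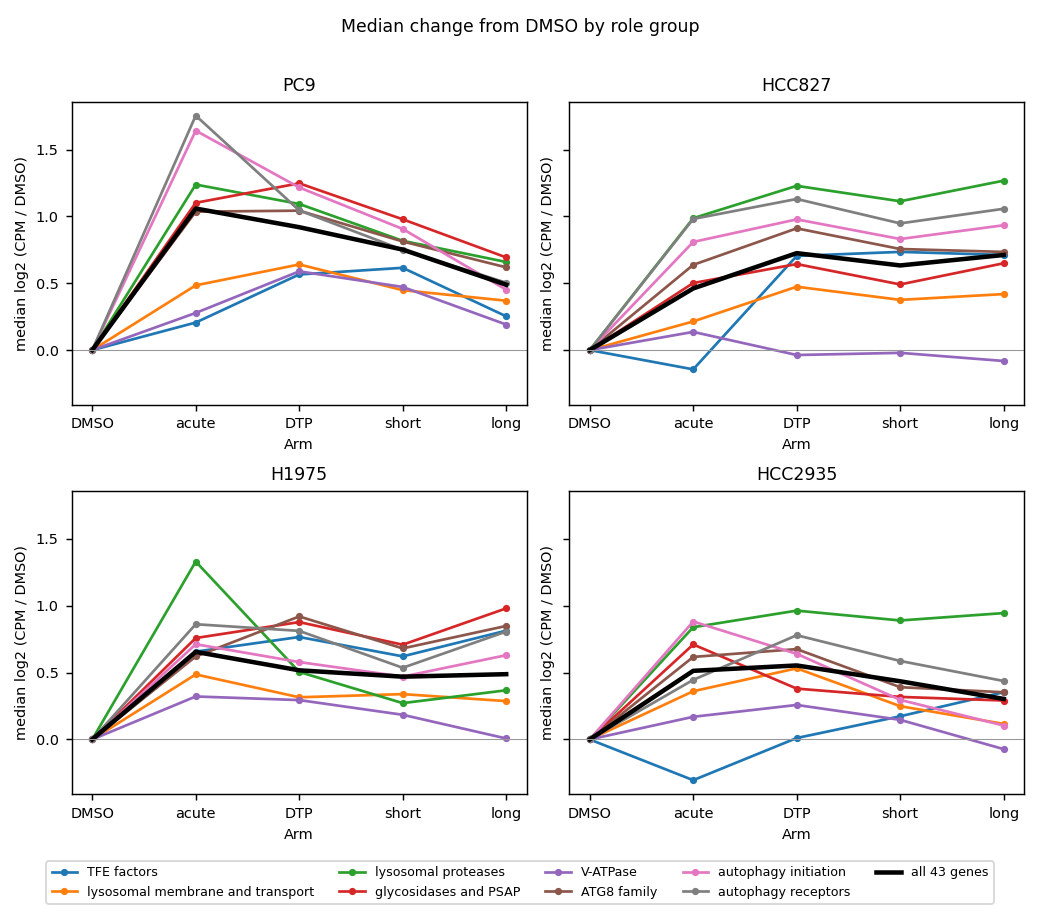
Median over the genes of each role group of the log2 ratio of mean CPM to DMSO, by arm, in each of the 4 lines; the black line is the median of all 43 genes. The black line ends at 0.49 in PC9 and 0.30 in HCC2935 after long washout, below the DTPs in both (0.92 and 0.55), and at 0.71 in HCC827 and 0.49 in H1975, near their DTPs (0.73 and 0.52).

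Other genes of the same pathways, from lists that are not part of the 43, moved in DTPs as follows, beside 27.8% of all genes called higher and 27.1% lower. Of 29 other lysosomal hydrolases 18 rose (62.1%) and 4 fell (13.8%), with CTSO, a cysteine cathepsin (2.69 ± 0.30), and IDUA, which degrades glycosaminoglycans (1.48 ± 0.16), as the 2 largest called changes of the same sign in all 4 lines at a mean of at least 1 CPM. Of 12 other lysosomal membrane proteins tested 6 rose (50%) and 1 fell (8.33%), and that rule named the sialic acid exporter SLC17A5 (1.21 ± 0.083) and SCARB2, the receptor that sorts glucocerebrosidase (0.81 ± 0.074). Of 16 other V-ATPase subunits 6 rose (37.5%) and 1 fell (6.25%), and ATP6V0A4 (1.42 ± 0.27) and ATP6V0E1 (0.50 ± 0.056), of the membrane sector, were named. Of 30 other core autophagy genes tested 11 rose (36.7%) and 9 fell (30%), shares near those of all genes, and ULK2, the paralog of ULK1 (0.93 ± 0.17), and WDR45, a relative of WIPI1 (0.85 ± 0.092), were named by the same rule. Of 10 other autophagy receptors 6 rose (60%) and 1 fell (10%), and the ER receptors RETREG1 (3.06 ± 0.21) and CCPG1 (1.1 ± 0.088) were named. Of 13 Rag and FLCN regulators, which control the recruitment of mTORC1 and of TFEB to the lysosome, 7 rose (53.8%) and 3 fell (23.1%). RRAGD rose by 3.14 ± 0.37 (adjusted p = 2.38e-07) in DTPs, from 1.6 ± 0.22 in PC9 to 4.78 ± 0.31 in H1975, and FLCN, the activator of RagC and RagD, by 1.11 ± 0.078 (adjusted p = 2.38e-10).

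Counting could mix some members with other genes. In GENCODE release 29 an exon of 18 of the 43 genes overlaps a gene on the opposite strand and an exon of 9 overlaps a gene on the same strand, and CTSL, MAP1LC3B, BECN1 and SQSTM1 have pseudogenes that carry their names. Whether the counting used strand is not given in the sources used here, so reads of overlapping genes cannot be told apart.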

How the data were processed

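The authors deposited 2 tables by gene symbol, one of estimated counts and one of log2(TPM + 0.01). The submitters' processing notes name HISAT2 2.1.0, Salmon 0.8.2 and hg38 with no role, and the annotation is not given in the sources used here. Groups came from the sample labels. The members and gene lists were chosen with earlier results of these data known.

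The estimated counts were rounded and tested with edgeR 4.0.16 in R 4.3.3 (TMM, filterByExpr, quasi-likelihood F-test, Benjamini-Hochberg over all genes tested), each comparison on its own libraries, with the line as a covariate in joint fits and its interaction with the arm for differences between lines. CPM are TMM-normalized. Alternatives were DESeq2 1.42.0, limma 3.58.1 on the deposited log2 TPM, RLE factors, library size only, 2 filters, a replicate block, 1 fit of all 60 libraries, and each line and library left out. Tables and figures used Python 3.11.15, pandas 2.3.3, numpy 2.4.6 and matplotlib 3.10.9.

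The replicates are labelled biological triplicates. Their spread was 8.82 to 142 times counting error over 60 pairs, so that no 2 libraries looked like repeats of 1 library. Same-numbered libraries deviated together, with every correlation over 0.1, in 1 of 16 comparisons (acute against DMSO in HCC2935). The reported fits did not pair libraries by number, there or elsewhere, and the replicate block was an alternative. Tested on simulated data with 200 changed genes among 15970, the fit of acute against DMSO over 4 lines recovered 83% of genes changed by 1 on the log2 scale and 92% of those changed by 2, with 4.89% false calls. The interaction test for acute recovered 53% and 76% (5.15% false), and DTPs against DMSO in PC9 recovered 82% and 93% of changes among 14382 genes (6.42% false). The simulation changed few genes, and for the joint fit by the same amount in every line. In the data many more genes were called and many differed between lines, so these rates may not carry over.

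Named genes followed a rule: in each role group the member with the largest change in DTPs, given in every DMSO and DTP library, and the largest called rises and falls. TFEB, TFE3, MITF and the ATG8 genes were always named, as were 2 genes of each further list. Protein sequences are not reported here.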

Additional observations from a re-analysis of the deposited data

Results flagged for a closer look

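For 11 named genes in acute osimertinib and 14 in DTPs, the effect against DMSO differed between the 4 lines by the interaction test at an adjusted p under 0.05. The value given for each is the highest minus the lowest log2 fold change of the 4 lines. In acute osimertinib this span was 1.97 for CALCOCO1 and 1.90 for GABARAPL1, both highest in PC9 and lowest in HCC827, and 1.52 for WIPI1, highest in PC9 and lowest in HCC2935. TFE3 spanned 0.94, from 0.62 in H1975 to -0.32 in HCC2935, and was called in opposite directions in these lines, although leaving out 1 of the 6 HCC2935 libraries lost the HCC2935 call for 3 of them. The spans of the other genes were 0.79 for CLN3, 0.77 for ATP6V0A1, 0.67 for GABARAP, 0.56 for MAP1LC3B, 0.53 for PSAP, 0.50 for ATP6V0D1 and 0.45 for GABARAPL2.

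In DTPs the span was 2.28 for CALCOCO1, from 3.48 in PC9 to 1.21 in H1975, and 1.99 for GABARAPL1, from 3.56 in HCC2935 to 1.57 in HCC827. CTSF spanned 1.51 and PSAP 1.24, both highest in PC9. GABARAP spanned 1.31, highest in H1975 and lowest in HCC2935, where it was not called. MITF spanned 1.18 and was called higher in PC9 and lower in HCC827. The spans were 0.95 for WIPI1, 0.76 for TFE3, 0.76 for MCOLN1, 0.76 for CLN3, 0.72 for ATP6V0A1, 0.64 for ATP6V0D1, 0.54 for GLA and 0.39 for GABARAPL2. The test was also called for 40.5% of all genes in acute osimertinib and 61.6% in DTPs.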

How the results depend on the processing

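Counts of members called higher in acute osimertinib and in DTPs against DMSO stayed within 1.5 times of the reported count under every alternative. With another scaling no count of members called higher moved by over 1.5 times, although the median of all genes in DTPs of PC9 went from 0.018 to 0.18 with library size only. With that setting the share of called genes that were higher went from 51.9% to 67.4% for long washout against DMSO in PC9 and from 47.8% to 57.9% for acute in HCC827. Small counts of members called lower moved. Acute osimertinib (1 lower over the 4 lines) gave 3 without H1975, 2 without HCC2935 and 2 in 1 fit of all 60 libraries. DTPs (2 lower) gave 1 with library size only, RLE factors, a floor of 10 counts per library, DESeq2, limma, a replicate block, or without HCC827, H1975 or HCC2935. DTPs against acute (9 lower) gave 4 in limma. Short washout (0 higher) gave 1 with that floor, DESeq2, limma, 1 fit of all 60 libraries or without HCC827, and its 14 lower became 4 without PC9 and 8 without HCC2935. Differences between lines went from 30 to 13 in acute and from 35 to 20 in DTPs without PC9, and from 0 to 1 for short washout in DESeq2. Shares of all genes were not counted for the fits without a line or with 1 library left out. In single lines, PC9 acute (1 lower) gave 2 with a replicate block and PC9 long washout against DMSO (1 lower) 0 in limma. PC9 long washout against DTPs (10 lower) gave 23 in DESeq2 and 24 in 1 fit of all 60 libraries. HCC827 DTPs (2 lower) gave 4 in that fit, and HCC827 long washout against DMSO (4 lower) 2 with library size only and 2 in limma. H1975 long washout against DTPs (0 lower) gave 1 in DESeq2. HCC2935 acute (5 lower) gave 3 with library size only and 3 in limma, its DTPs (3 lower) 1 in limma, and its long washout against DMSO (4 lower) 2 in limma. HCC2935 long washout against DTPs (6 lower, 0 higher) gave 11 lower and 1 higher in DESeq2 and in 1 fit of all 60 libraries, and 0 lower with a replicate block. Over all genes, that comparison called 745 genes, 1713 in DESeq2 and 38 with a replicate block, and the PC9 one 2496 and 4174 in DESeq2. Differences between lines in short washout were called for 4 genes, 341 in DESeq2, 19 in limma and 171 with a replicate block, long washout against DTPs for 0 genes in HCC827 (7 in DESeq2) and 2 in H1975 (68 in DESeq2, 0 in limma). The causes were not tested. With 1 library left out, the members called lower ranged from 1 to 2 in acute and 1 to 2 in DTPs over the 4 lines. They ranged from 1 to 2 in acute PC9, 2 to 5 in acute HCC2935, 0 to 1 in PC9 long washout against DMSO, 1 to 4 in that of HCC827 and 2 to 4 in that of HCC2935. Against DTPs they ranged from 0 to 31 in PC9 long washout and 0 to 11 in that of HCC2935. Members called higher ranged from 6 to 27 in PC9 long washout against DMSO, 0 to 1 in short washout, and 0 to 1 in long washout against DTPs in PC9 and in HCC2935. TFE3 reversed in acute osimertinib, from 0.039 (not called) to -0.15 without H1975 (adjusted p = 0.0439). Same-numbered libraries correlated from -0.603 to 0.325 in their deviations over the 16 comparisons, and the replicate block changed no other count of members by over 1.5 times. In 1 of the 16, long washout against DMSO in H1975, every library correlated best with its own number, a hint from the data. The correlations there were 0.00815, 0.0143 and 0.0302. In acute against DMSO in HCC2935 not every library correlated best with its own number. TFEB was near the floor in HCC827 (0.0976 to 0.454 CPM under DMSO).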
